A study of Homo sapiens with 12 samples.

Results

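The 10 genes of epithelial antimicrobial and antiprotease defence, LCN2, LTF, DEFB1, DEFB4A, CAMP, RNASE7, BPIFC, SLPI, PI3 and WFDC2, were followed by gene name through the raw counts of an oxidative stress experiment, as 10 of the 58735 genes counted. The experiment used TIGK, gingival keratinocytes immortalized with telomerase, and HaCaT, spontaneously immortalized skin keratinocytes, each represented by 1 line and grown in the same keratinocyte medium to full confluency. The 4 groups were untreated TIGK, TIGK exposed to 5 mM hydrogen peroxide (H2O2) for 3 h, untreated HaCaT, and HaCaT exposed to the same dose for the same time, with 3 libraries of polyadenylated RNA in each. In the labels of replicates 2 and 3 of both treated groups the formula of the compound ends in another digit, whereas the treatment protocol gives H2O2 for all. Nothing in the sources used here says that the replicates came from separate cultures, so the p-values measure the spread between these libraries, which may be technical.

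Surface epithelia keep microbes in check with secreted proteins that act in different ways. Cationic peptides such as cathelicidin and the beta-defensins disrupt microbial membranes, lipocalin 2 and lactoferrin withhold iron, and the whey acidic protein (WAP) domain inhibitors SLPI and elafin restrain neutrophil elastase and related proteases while also acting on microbes. Keratinocytes make many of these proteins, some constantly and some on contact with microbes, cytokines or injury, and neutrophils carry several of the same proteins in their granules.

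Before treatment, TIGK held more transcripts of LCN2, BPIFC and SLPI than HaCaT, by 4.48-fold, 13.0-fold and 2.16-fold, and HaCaT held 1.70-fold more of WFDC2. PI3, at 100.3 and 109 RPKM, was not called between the lines. After H2O2, 0 of the 7 tested genes changed past the limit in TIGK, where 10.2% of all tested genes were higher and 12.9% lower. In HaCaT 1 did, WFDC2, upregulated 1.62-fold, where 18.9% of all tested genes were higher and 15.2% lower. The WFDC2 call was close to the limit and was lost when any HaCaT library was left out. The responses were not shown to differ between the lines for any of the 7 genes. DEFB4A had 0 counts in all 12 libraries, and DEFB1 and LTF had at most 8 counts in any library. A gene was tested where its mean raw count over the libraries reached 10, which held for 7 of the 10 genes and for 16618 genes in all. It was called where the p-value of edgeR's quasi-likelihood test, adjusted by Benjamini-Hochberg over all genes tested, was under 0.01.

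Libraries held 30426401 to 49034244 counts (median 34684154.5), and replicates of a group differed by more than counting noise. All 9 keratinocyte markers examined had counts in every group, with summed normalized counts of 1321000 to 1623000 per library. Normalized counts are counts scaled to a common library size, so they compare 1 gene between libraries. Levels of different genes are compared in RPKM, reads scaled to gene length and library size. Of 12 neutrophil and leukocyte markers 0 passed the filter, their sum was 0 to 21.95 normalized counts in any library, and ELANE, CEACAM8, CSF3R and FCGR3B were at 0 in every group.

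Coordinates are those of GRCh38 in the count table and span whole genes with their exons, introns and untranslated regions. The WAP genes form a cluster on chromosome 20, with PI3 at chr20:45174876-45176544, SLPI at chr20:45252239-45254564 on the minus strand and WFDC2 at chr20:45469706-45481532. The gap between PI3 and SLPI is 75.7 kb and that between SLPI and WFDC2 is 215 kb. LCN2 is at chr9:128149071-128153455, RNASE7 at chr14:21042226-21044234, CAMP at chr3:48223347-48225491 and LTF at chr3:46435645-46485234 on the minus strand. BPIFC is at chr22:32413847-32464484 on the minus strand.

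Upstream sequences of 5 of the 10 genes were taken from the RefSeq promoter table (GRCh38.p14), without establishing that the others lack an entry. Those of LCN2, WFDC2 and RNASE7 are shown because LCN2 and WFDC2 differed between the lines in opposite directions and RNASE7 was called between the treated lines. Each is the 250 bases before the start that RefSeq annotates, on the plus strand, at chr9:128149203-128149452 for LCN2, chr20:45469503-45469752 for WFDC2 and chr14:21042112-21042361 for RNASE7. The RefSeq starts lie 382 bases (LCN2), 47 bases (WFDC2) and 136 bases (RNASE7) downstream of the gene starts in the count table, so the LCN2 window falls wholly inside the gene as that table draws it and the other windows reach into theirs. Capitals mark matches, on either strand, to the motifs AP-1 (TGANTCA), NF-kB (GGGANNNNCC), C/EBP (TTGNNCAA) and the TATA box (TATAAA).
LCN2: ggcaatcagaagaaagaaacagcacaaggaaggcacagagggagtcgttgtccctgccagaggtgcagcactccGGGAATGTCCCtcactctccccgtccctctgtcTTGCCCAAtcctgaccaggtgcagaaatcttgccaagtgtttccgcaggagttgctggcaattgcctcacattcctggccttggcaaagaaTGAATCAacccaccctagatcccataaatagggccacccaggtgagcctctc
WFDC2: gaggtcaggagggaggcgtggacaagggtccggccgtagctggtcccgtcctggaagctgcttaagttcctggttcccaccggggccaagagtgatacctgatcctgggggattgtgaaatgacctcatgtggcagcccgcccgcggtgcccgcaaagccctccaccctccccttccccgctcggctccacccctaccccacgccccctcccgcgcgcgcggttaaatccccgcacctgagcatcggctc
RNASE7: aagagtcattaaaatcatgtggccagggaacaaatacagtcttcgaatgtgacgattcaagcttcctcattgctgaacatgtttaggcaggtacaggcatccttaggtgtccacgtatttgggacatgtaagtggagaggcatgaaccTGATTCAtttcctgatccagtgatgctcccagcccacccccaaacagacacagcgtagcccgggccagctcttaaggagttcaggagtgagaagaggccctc
The LCN2 window held 2 NF-kB matches, which overlap each other and begin 176 and 175 bases before the RefSeq start, a C/EBP match at 143 and an AP-1 match at 52. The RNASE7 window held an AP-1 match at 102, and neither the WFDC2 window nor that of CAMP matched any of the 4 motifs. Windows of LTF, which are not shown, held a C/EBP match at 59 and, in a different window, an NF-kB match at 152. Among 35116 windows of the same length in the table, 22.6% held the NF-kB motif, 6.57% AP-1, 4.9% C/EBP and 10.7% the TATA box. These matches describe letters in the windows, and binding was not measured.

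Levels per length put SLPI and PI3 far above the other genes. In untreated TIGK, SLPI was at 118 ± 11.2 RPKM and PI3 at 100.3 ± 4.86 (SD, n = 3), followed by RNASE7 at 4.27 ± 0.496, LCN2 at 2.59 ± 0.163, BPIFC at 1.39 ± 0.131, WFDC2 at 1.16 ± 0.200 and CAMP at 0.587 ± 0.151. Neighbours in that order did not overlap between libraries, except BPIFC and WFDC2. In untreated HaCaT the order was PI3 at 109 ± 3.05, SLPI at 54.7 ± 6.85, RNASE7 at 4.70 ± 0.720, WFDC2 at 1.97 ± 0.105, LCN2 at 0.571 ± 0.0911, CAMP at 0.420 ± 0.246 and BPIFC at 0.1003 ± 0.0648. There LCN2, CAMP and BPIFC each overlapped with the next gene. SLPI and PI3 together held 94.3% to 96.7% of the summed RPKM of the 10 genes in every library. SLPI lay above 98.5% of the tested genes in untreated TIGK and 96.1% in untreated HaCaT, and PI3 above 98.1% and 98.3%.

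**Figure D1:**
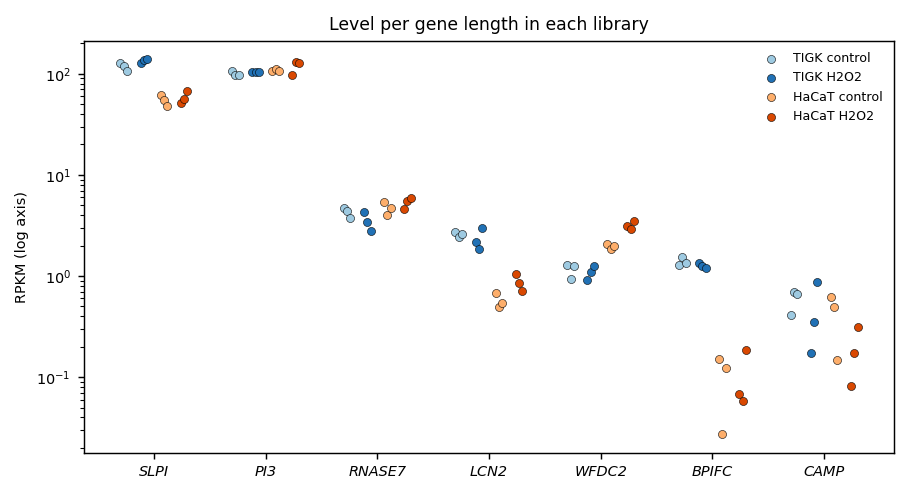
RPKM of the 7 tested genes on a log axis, with 1 point per library and colours for the 4 groups. SLPI and PI3 stand between about 48 and 140 RPKM in all libraries, whereas the other 5 genes stay below 6 RPKM.

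SLPI, the secretory leukocyte protease inhibitor, differed between the lines by more than any spread within them. Its normalized counts were 2786, 2569 and 2305 in untreated TIGK, 2778, 2946 and 2998 in treated TIGK, 1333, 1177 and 1037 in untreated HaCaT, and 1103, 1223 and 1465 in treated HaCaT. Every TIGK library lay above every HaCaT library, while treated and untreated libraries of a line overlapped. SLPI was 2.16-fold lower in HaCaT at baseline (log2 fold change -1.11, SE 0.0996, edgeR adjusted p = 8.354e-09) and 2.30-fold lower after H2O2 (-1.20, SE 0.0998, edgeR adjusted p = 2.675e-09). The response of TIGK was 0.19 on the log2 scale (95% interval -0.0148 to 0.39, edgeR adjusted p = 0.1387) and that of HaCaT was 0.09 (SE 0.101, edgeR adjusted p = 0.4753). Because RNA was taken from whole cultures, fewer expressing cells and less RNA per cell cannot be told apart, here and for the other genes.

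PI3 encodes elafin, the other elastase inhibitor of the cluster and a substrate for crosslinking into the cornified envelope. It had 2215, 2057 and 2025 normalized counts in untreated TIGK, 2181, 2169 and 2187 in treated TIGK, 2239, 2352 and 2243 in untreated HaCaT, and 2045, 2713 and 2653 in treated HaCaT. Untreated HaCaT libraries all lay slightly above the untreated TIGK libraries, yet the difference did not pass the test (log2 fold change 0.12, SE 0.0817, edgeR adjusted p = 0.2118). After H2O2 it was 0.18 (SE 0.0817, edgeR adjusted p = 0.05651), and without HaCaT H2O2 replicate 1, the lowest of its group, it was 0.26 (edgeR adjusted p = 0.001185). The ratio of SLPI to PI3, in RPKM within a library, ran from 1.10 to 1.22 in untreated TIGK and from 1.23 to 1.33 after H2O2, against 0.447 to 0.576 and 0.436 to 0.534 in HaCaT. SLPI was thus the more abundant of the pair in every TIGK library and PI3 in every HaCaT library.

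WFDC2 (HE4), a secreted WAP protein of many glandular and airway epithelia, was the only one of the 7 tested genes called in a response to H2O2. Normalized counts were 65.1, 46.7 and 62.7 in untreated TIGK, 45.2, 55.2 and 62.5 in treated TIGK, 103, 92.8 and 99.7 in untreated HaCaT, and 158, 146 and 176 in treated HaCaT. All treated HaCaT libraries lay above all untreated ones, and all HaCaT libraries lay above all TIGK libraries. The HaCaT response was 0.70 on the log2 scale (SE 0.1995, 95% interval 0.278 to 1.11, edgeR adjusted p = 0.007843) and that of TIGK was -0.09 (SE 0.2202, edgeR adjusted p = 0.7892). The HaCaT call stood close to the limit. It was lost when any of the 6 HaCaT libraries was left out (log2 fold change 0.62 to 0.73, edgeR adjusted p between 0.01572 without HaCaT H2O2 replicate 2 and 0.03888 without HaCaT H2O2 replicate 3), and also without TIGK H2O2 replicate 2 (0.01364) or 3 (0.0116). It was lost as well with upper-quartile factors (0.01226), without the filter (0.02298), with edgeR's filterByExpr (0.01075) and with a replicate block (0.01191), whereas DESeq2 called it (0.002432). Between the lines, WFDC2 was 1.70-fold higher in HaCaT at baseline (log2 fold change 0.76, SE 0.2116, edgeR adjusted p = 0.003651), a call lost without HaCaT control replicate 1 (0.01351) or TIGK control replicate 2 (0.0195). After H2O2 it was 2.92-fold higher in HaCaT (1.55, SE 0.2092, edgeR adjusted p = 2.257e-06).

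The region from PI3 to WFDC2 holds 19 annotated genes, 13 of them protein-coding and 9 of those tested. The seminogelin genes beside PI3 had 0 counts (SEMG1) and 6 counts (SEMG2) over all libraries. Neighbouring genes outside the WAP family had their own levels: SDC4, a heparan sulfate proteoglycan of the cell surface, had 22280 normalized counts in untreated TIGK and 20130 in untreated HaCaT (log2 fold change -0.15, SE 0.0575, edgeR adjusted p = 0.03089). PIGT, a subunit of the enzyme that attaches GPI anchors, had 4689 and 4564 (-0.04, SE 0.0558, edgeR adjusted p = 0.5546). SYS1 had 1043 and 1298 and was called higher in untreated HaCaT, as WFDC2 was (0.32, SE 0.0705, edgeR adjusted p = 0.0005845).

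**Figure D2:**
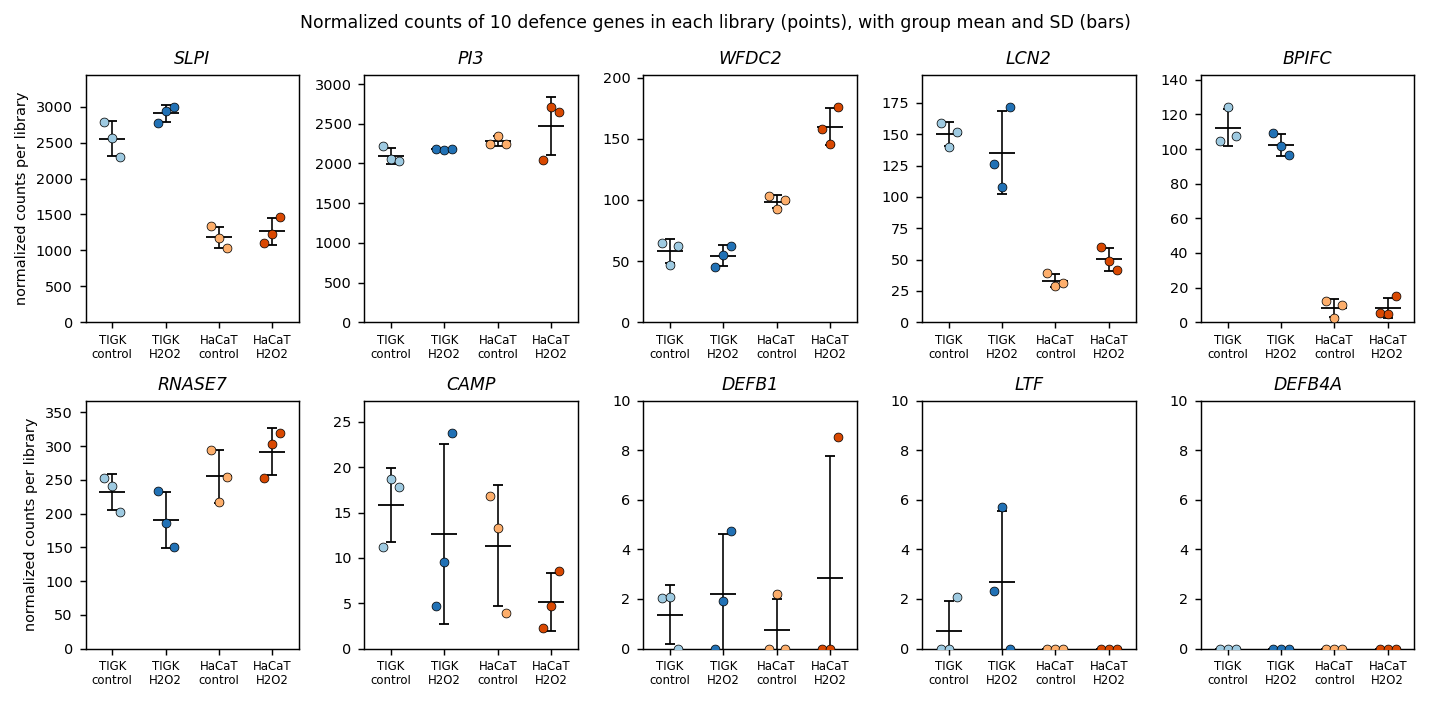
Normalized counts of the 10 genes, with 1 point per library, the group mean as a horizontal mark and the SD (n = 3) as bars, each panel on its own linear axis from 0. SLPI, LCN2 and BPIFC separate the lines with TIGK higher, WFDC2 separates them with HaCaT higher, and DEFB4A is at 0 in all 12 libraries.

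LCN2 encodes lipocalin 2, which binds bacterial siderophores and so denies bacteria iron. Its normalized counts were 159, 140 and 152 in untreated TIGK, 126, 108 and 172 in treated TIGK, 39.0, 28.7 and 31.6 in untreated HaCaT, and 60.1, 49.0 and 41.6 in treated HaCaT. Every TIGK library lay above every HaCaT library, and the treated HaCaT libraries all lay above the untreated ones. LCN2 was 4.48-fold lower in HaCaT at baseline (log2 fold change -2.16, SE 0.2387, edgeR adjusted p = 1.487e-07) and 2.70-fold lower after H2O2 (-1.43, SE 0.232, edgeR adjusted p = 1.986e-05). The response of HaCaT was 0.59 (SE 0.2561, 95% interval 0.0482 to 1.12) and did not pass the limit (edgeR adjusted p = 0.06869), nor did that of TIGK at -0.14 (SE 0.2125, edgeR adjusted p = 0.6342).

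LTF, lactoferrin, is the iron-binding protein of milk, secretions and neutrophil granules. Raw counts were 0, 0 and 2 in untreated TIGK, 2, 6 and 0 in treated TIGK, and 0 in all 6 HaCaT libraries. A count of 0 allows up to 3 counts per library, which for LTF is 0.0149 to 0.0227 RPKM. That allowance covers counting error only. In the fit without the filter the smallest edgeR adjusted p for LTF was 0.158, between the treated lines. No difference between the lines was thus shown for LTF at this depth.

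RNASE7, a ribonuclease with broad antimicrobial action that skin keratinocytes secrete, was the third most abundant of the genes in every group by mean RPKM. In treated TIGK its libraries overlapped those of LCN2 in RPKM. RNASE7 had 253, 242 and 202 normalized counts in untreated TIGK, 233, 186 and 151 in treated TIGK, 295, 217 and 255 in untreated HaCaT, and 253, 303 and 319 in treated HaCaT. Untreated libraries of the lines overlapped (log2 fold change 0.14, SE 0.166, edgeR adjusted p = 0.4609), whereas after H2O2 every HaCaT library lay above every TIGK library. After H2O2 RNASE7 was 1.54-fold higher in HaCaT (0.63, SE 0.1682, edgeR adjusted p = 0.002838). The call was lost without HaCaT H2O2 replicate 2 (0.01794) or 3 (0.01172) and without TIGK H2O2 replicate 2 (0.01861) or 3 (0.04264). The responses themselves were -0.30 in TIGK (SE 0.1694, edgeR adjusted p = 0.1829) and 0.19 in HaCaT (SE 0.1647, edgeR adjusted p = 0.3778). RNASE7 overlaps NDRG2, which lies on the opposite strand. Whether counting was strand-specific is not given in the sources used here, and without strand reads of the pair cannot be told apart. NDRG2 had 727 ± 26.4 normalized counts in untreated TIGK and 272 ± 26.8 in untreated HaCaT, with 856 ± 66.5 and 318 ± 37.6 after H2O2 (SD, n = 3), thus higher in TIGK while RNASE7 was not. Its part in the RNASE7 values was not tested.

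CAMP, which encodes the cathelicidin precursor of the membrane-active peptide LL-37, was barely above the filter. Normalized counts were 11.2, 18.7 and 17.8 in untreated TIGK, 4.64, 9.52 and 23.8 in treated TIGK, 16.8, 13.3 and 3.95 in untreated HaCaT, and 2.23, 4.66 and 8.54 in treated HaCaT. The libraries overlapped in each pair of groups that was compared. The coefficient of variation reached 78.6% in treated TIGK. No comparison passed: the largest were -1.32 between the treated lines (SE 0.6927, edgeR adjusted p = 0.09815) and -1.13 for the HaCaT response (SE 0.7027, edgeR adjusted p = 0.199).

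The beta-defensin genes DEFB1 (chr8:6870575-6878022, minus strand) and DEFB4A (chr8:7894629-7896711) were near or at 0. DEFB1, the defensin that many epithelia make without stimulation, had raw counts of 2, 2 and 0 in untreated TIGK, 0, 2 and 6 in treated TIGK, 0, 2 and 0 in untreated HaCaT, and 0, 0 and 8 in treated HaCaT. DEFB4A, which encodes the inducible beta-defensin 2, had 0 counts of 435727626 in all libraries together, and its near-identical copy DEFB4B also had 0. How reads that map to several places were treated is not given in the sources used here, and if such reads were left out, both copies would be at 0 at any level. Only if DEFB4A reads could be counted does the 0 allow at most 0.166 to 0.254 RPKM per library. All 9 counts above 0 in DEFB1 and LTF were even numbers. In the whole table the value 2 occurred 23616 times and the value 1 only 14394 times, and whether mates of a read pair were counted separately is not given in the sources used here. If they were, the RPKM given above as allowed by a 0, for DEFB4A and for LTF, would be too low.

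BPIFC, a member of the lipid-binding family of the bactericidal/permeability-increasing protein, had the largest fold between the lines among the 7 tested genes. It had 105, 124 and 108 normalized counts in untreated TIGK, 109, 102 and 96.6 in treated TIGK, 12.2, 2.21 and 9.87 in untreated HaCaT, and 5.56, 4.66 and 14.9 in treated HaCaT. All TIGK libraries were at 96.6 or more and all HaCaT libraries below 15, from 2 to 16 raw counts. BPIFC was 13.0-fold lower in HaCaT at baseline (log2 fold change -3.70, SE 0.392, edgeR adjusted p = 8.382e-08) and 11.9-fold lower after H2O2 (-3.57, SE 0.404, edgeR adjusted p = 2.143e-07). Neither response passed, at -0.13 in TIGK (SE 0.3048, edgeR adjusted p = 0.7697) and -0.0005 in HaCaT (SE 0.3582, edgeR adjusted p = 1). The HaCaT SE is unreliable, since it is derived from an F statistic near 0. With upper-quartile factors the HaCaT response was -0.04 (SE 0.5128). Of 12 other genes of this fold listed, 1 was tested, PLTP, the phospholipid transfer protein, with 6775 normalized counts in untreated TIGK and 3679 in untreated HaCaT (-0.88, SE 0.0572, edgeR adjusted p = 7.249e-11).

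Between the untreated lines 1 of the 7 tested genes was higher in HaCaT, where 29.1% of all tested genes were, and 3 were lower, where 30.8% were. Their median log2 fold change was -0.46, beside -0.01 over all genes. Between the treated lines 2 were higher (30.2% of all genes) and 3 lower (29.8%), with a median of -1.20 beside 0.02. These 2 comparisons share no libraries, but they share the lines and the fit, so the second is not an independent repeat of the first. In the TIGK response 0 were higher (10.2% of all genes) and 0 lower (12.9%), with a median of -0.13 beside 0.01. In the main fit 0 of the 7 reached an unadjusted p under 0.05, and DESeq2 called 0. In fits to the TIGK groups alone SLPI had an adjusted p of 0.03719 with edgeR and 0.03849 with DESeq2. Without the filter its edgeR adjusted p was 0.01848. All of these were short of the limit. In the HaCaT response 1 was higher (18.9% of all genes) and 0 were lower (15.2%), with a median of 0.12 beside 0.04. With 7 genes, counts near these shares are not a result about the genes as a group.

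Markers of other cell types also differed between the lines. Fibroblast markers summed to 804 to 938 normalized counts in TIGK libraries and 311 to 418 in HaCaT libraries, with COL1A2 at 0 in every group. The 3 of 7 that were tested were all lower in untreated HaCaT, among them DCN with 197 normalized counts in untreated TIGK and 4.91 in untreated HaCaT (log2 fold change -5.28, SE 0.3425, edgeR adjusted p = 7.143e-11). PDGFRB had 13.1 in untreated TIGK and 1.68 in untreated HaCaT. Both DCN and PDGFRB passed the filter through their TIGK counts, so their direction was set by it. Melanocyte markers summed to 426 to 707 in TIGK and 155 to 230 in HaCaT. Most of this sum was MITF, with 390 in untreated TIGK and 106 in untreated HaCaT. Of the 6, 2 were tested, and 1 was lower in untreated HaCaT, MITF (-1.88, SE 0.145, edgeR adjusted p = 9.406e-10). The other, PMEL, had 42.7 and 47.1 and was not called (0.14, SE 0.3206, edgeR adjusted p = 0.7232). TYR was at 0 in all groups but treated TIGK. The direction of the fibroblast markers and MITF is that of SLPI, LCN2 and BPIFC. Of 4 endothelial markers 1 was tested, VWF, which was higher in untreated HaCaT, as WFDC2 was, with 12.0 normalized counts in untreated TIGK and 45.5 in untreated HaCaT (1.90, SE 0.5517, edgeR adjusted p = 0.005011). The endothelial sum was 10.4 to 32.5 in untreated TIGK, 6.96 to 34.04 in treated TIGK, 32.1 to 59.7 in untreated HaCaT and 7.47 to 38.9 in treated HaCaT, with CDH5 at 0 in all but treated TIGK. The part of these markers in the differences between the lines was not tested.

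The responses of the lines were also compared directly, as the response of TIGK minus that of HaCaT. In this difference 0 of the 7 genes were higher (2.32% of all genes) and 0 lower (2.98%), with edgeR and with DESeq2. At an unadjusted p under 0.05 there were 2, WFDC2 with -0.78 (SE 0.2971, edgeR adjusted p = 0.09718) and LCN2 with -0.73 (SE 0.3327, edgeR adjusted p = 0.1723). The WFDC2 response was therefore not shown to differ between the lines, although it passed the test in HaCaT alone. For RNASE7 the difference was -0.48 (SE 0.2363, edgeR adjusted p = 0.2054).

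**Figure D3:**
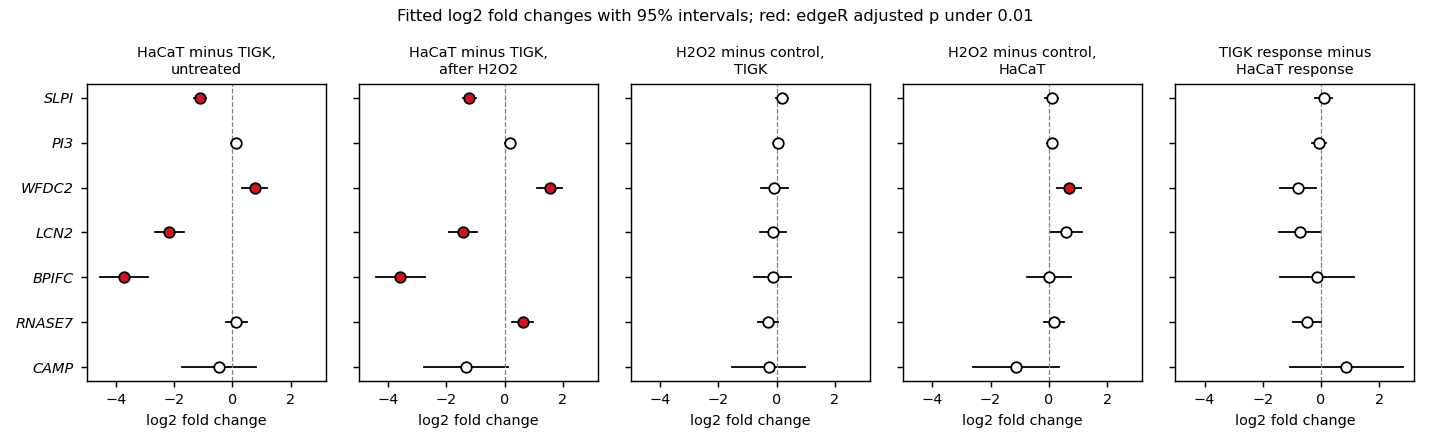
Log2 fold changes of the 7 tested genes (points) with 95% intervals (lines) in the 5 comparisons, red where the edgeR adjusted p was under 0.01. The interval of BPIFC in the HaCaT response rests on an unreliable SE, as its log2 fold change was near 0. Calls fall almost wholly in the comparisons of the lines, with SLPI, LCN2 and BPIFC below 0, WFDC2 above 0 and, after H2O2, RNASE7 above 0, and WFDC2 in HaCaT is the only red point of a response.

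Further genes of these systems were taken from lists written from general knowledge. To set beside the counts below, 29.1% of all tested genes were higher and 30.8% lower in untreated HaCaT. In the responses 10.2% rose and 12.9% fell in TIGK, and 18.9% rose and 15.2% fell in HaCaT. Of 52 other antimicrobial peptides and proteins 11 were tested, and at baseline 8 of these were lower and 1 higher in HaCaT, with a median of -2.86. Among the 8, S100A7, S100A12 and CCL20 had 1.78, 4.46 and 4.84 normalized counts in untreated HaCaT. They passed the filter through their TIGK counts, so their direction was set by it and the median depends on it. S100A9, a subunit of the metal-binding protein calprotectin, had 6905 normalized counts in untreated TIGK and 262 in untreated HaCaT (log2 fold change -4.71, SE 0.1452, edgeR adjusted p = 1.038e-15). In the TIGK response 1 of the 11 rose and 0 fell, and likewise in HaCaT. The gene that rose was in both lines ADM, which encodes the vasoactive and antimicrobial peptide adrenomedullin, from 3563 to 8302 in TIGK (1.22, SE 0.0645, edgeR adjusted p = 4.939e-11) and from 1315 to 1698 in HaCaT (0.37, SE 0.0678, edgeR adjusted p = 0.0002399). Its responses differed by 0.85 (SE 0.0931, edgeR adjusted p = 7.195e-06).

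Among 29 other protease inhibitors 14 were tested, and at baseline 6 were higher and 7 lower in HaCaT. SERPINB1, an intracellular inhibitor of neutrophil proteases, had 307 normalized counts in untreated TIGK and 2395 in untreated HaCaT (log2 fold change 2.96, SE 0.1012, edgeR adjusted p = 4.577e-15). A2ML1, a broad inhibitor of the alpha-2-macroglobulin family, had 2873 and 398 (-2.85, SE 0.0806, edgeR adjusted p = 3.062e-16). In the TIGK response 1 of the 14 rose and 1 fell, and in HaCaT 5 rose and 2 fell. SPINK6, an inhibitor of kallikreins, rose in HaCaT from 2746 to 4488 (0.71, SE 0.1426, edgeR adjusted p = 0.0005288), and A2ML1 fell there from 398 to 251 (-0.66, SE 0.0901, edgeR adjusted p = 1.201e-05). In TIGK neither passed, at 0.40 for SPINK6 (SE 0.1575, edgeR adjusted p = 0.05425) and -0.21 for A2ML1 (SE 0.0716, edgeR adjusted p = 0.02791), and neither difference of the responses did (edgeR adjusted p = 0.3902 and 0.01535). CSTB, a cytosolic inhibitor of cathepsins, rose in both lines, from 6709 to 8339 in TIGK (0.31, SE 0.0631, edgeR adjusted p = 0.000751) and from 3726 to 4923 in HaCaT (0.40, SE 0.0640, edgeR adjusted p = 6.002e-05). ANOS1, a secreted protein with a WAP domain, fell in TIGK from 317 to 218 (-0.54, SE 0.1462, edgeR adjusted p = 0.007315). In HaCaT it was at 86.4 and 104 (0.27, SE 0.1668, edgeR adjusted p = 0.2003), and the difference of its responses did not pass (edgeR adjusted p = 0.02234).

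Of 33 genes for the sensing of microbes and the induction of defence genes 30 were tested, and at baseline 11 were higher and 15 lower in HaCaT. TLR2, the receptor for bacterial lipoproteins, had 1846 normalized counts in untreated TIGK and 54.9 in untreated HaCaT (log2 fold change -5.09, SE 0.1316, edgeR adjusted p = 8.362e-17). MYD88, the adaptor that TLR2 and the IL-1 receptor share, had 1140 and 2828 (1.31, SE 0.0754, edgeR adjusted p = 1.161e-11). In the TIGK response 3 of the 30 rose and 8 fell, and in HaCaT 3 rose and 7 fell. IL22RA1, the receptor subunit through which IL-22 reaches keratinocytes, rose from 111 to 213 in TIGK (0.93, SE 0.2113, edgeR adjusted p = 0.002045) and from 48.8 to 105 in HaCaT (1.10, SE 0.2348, edgeR adjusted p = 0.0008517). IL1R1, the receptor of IL-1, fell from 566 to 218 in TIGK (-1.38, SE 0.1484, edgeR adjusted p = 9.807e-07) and from 99.1 to 35.9 in HaCaT (-1.47, SE 0.1994, edgeR adjusted p = 1.119e-05). CYP24A1, which inactivates the vitamin D hormone that induces CAMP, fell from 4204 to 732 in HaCaT (-2.52, SE 0.0764, edgeR adjusted p = 1.216e-14) and from 3464 to 1437 in TIGK (-1.27, SE 0.0719, edgeR adjusted p = 1.353e-10). Its responses differed by 1.25 (SE 0.103, edgeR adjusted p = 1.929e-07), with the larger fall in HaCaT.

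Of 18 receptors and target or processing proteases 11 were tested, and at baseline 5 were higher and 3 lower in HaCaT. KLK7, a kallikrein of the upper epidermis that can process cathelicidin, had 45.9 normalized counts in untreated TIGK and 501 in untreated HaCaT (log2 fold change 3.45, SE 0.1883, edgeR adjusted p = 5.31e-12). In the TIGK response 1 of the 11 rose and 3 fell, and in HaCaT 3 rose and 3 fell. PRSS8, the membrane-anchored protease prostasin, rose in HaCaT from 455 to 882 (0.96, SE 0.1185, edgeR adjusted p = 3.993e-06). In TIGK it was at 1006 and 1126 (0.16, SE 0.1125, edgeR adjusted p = 0.2824), and the responses differed (-0.80, SE 0.1632, edgeR adjusted p = 0.003518). LRP1, an endocytic receptor that clears protease complexes, fell in HaCaT from 2175 to 961 (-1.18, SE 0.1361, edgeR adjusted p = 1.799e-06) and in TIGK from 1877 to 1349 (-0.47, SE 0.1331, edgeR adjusted p = 0.009545). The difference of the LRP1 responses did not pass (0.71, SE 0.1896, edgeR adjusted p = 0.02016).

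Between the treated lines the counts higher and lower in HaCaT were 1 and 8 of the 11 antimicrobial genes, 4 and 6 of the 14 inhibitors, 10 and 14 of the 30 sensing genes, and 4 and 2 of the 11 receptors and proteases. In the difference of the responses they were 1 and 0, 1 and 2, 1 and 0, and 0 and 1 in the same order. Of all tested genes 30.2% were higher and 29.8% lower between the treated lines. In the difference of the responses 2.32% were higher and 2.98% lower. Median log2 fold changes between the untreated lines were -2.86, -0.49, -0.28 and 0.21, beside -0.01 over all genes. In the TIGK response the medians were 0.09, 0.05, -0.05 and -0.02, beside 0.01, and in the HaCaT response 0.14, 0.32, 0.01 and -0.15, beside 0.04. Those of the antimicrobial genes between the lines rest in part on genes that passed the filter through TIGK. The counts and medians describe the lists, and nothing is claimed as particular to any of them.

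**Figure D4:**
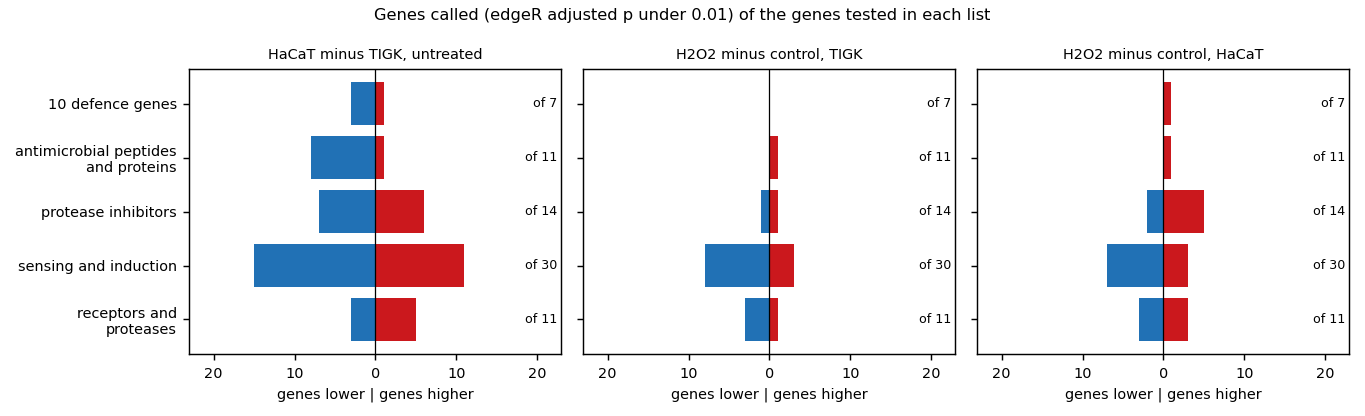
Number of genes called higher (red, to the right) and lower (blue, to the left) in 3 of the comparisons, for the 10 defence genes and 4 lists, with the number tested at the right. Of the antimicrobial genes 8 of 11 were lower in untreated HaCaT, where 30.8% of all tested genes were. Among the 8, S100A7, S100A12 and CCL20 passed the filter through their TIGK counts. In the response of either line 1 of 11 was called, as higher. Of all tested genes 10.2% were higher and 12.9% lower in the TIGK response, and 18.9% and 15.2% in the HaCaT response.

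The genes whose profiles over the 12 libraries were most like those of the defence genes were found by the root mean square difference of log2 values, after each profile was centred on its mean. For PI3 they were ATG101 (0.0558) and ZPR1 (0.0648), and for SLPI CHCHD7 (0.0811) and CHMP5 (0.1). For LCN2 they were PRKCE (0.205) and TFRC (0.211), for RNASE7 ABHD14B (0.153) and SESTD1 (0.154), for WFDC2 SNHG3 (0.163) and DUSP8 (0.182), and for BPIFC TSPAN33 (0.33) and LINC02015 (0.345). None of these is another of the 10 genes.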

How the data were processed

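Polyadenylated RNA of 12 libraries, 3 in each of the 4 groups, was sequenced as read pairs. The authors deposited raw read counts per gene, with gene lengths and GRCh38 coordinates, together with 4 tables of their own fold changes and adjusted p-values, which were not used. The labels' processing notes name HISAT2 2.0.5 and 2.0.0, StringTie 1.3.3b, featureCounts 1.5.0-p3 and DESeq2. The annotation release and the settings for strand and multiply mapped reads are not given in the sources used here. Groups were taken from the labels.

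The tests used edgeR 4.0.16 and limma 3.58.1 under R 4.3.3. Genes with a mean count of at least 10 entered 1 quasi-likelihood fit to all libraries with TMM normalization and 1 mean per group (common dispersion 0.0073, 10.4 prior degrees of freedom). P-values were adjusted by Benjamini-Hochberg over all 16618 genes, with a limit of 0.01. Standard errors and intervals were derived from the F statistics, which is unreliable where the log2 fold change is very near 0. RPKM used the deposited gene lengths and the TMM-scaled library sizes. Library totals of 30426401 to 49034244 counts and the spread of replicates (chi-square per degree of freedom 4.57 to 30.3) limit the precision.

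Alternatives were DESeq2 1.42.0, fits to the groups compared alone, other scalings, filters and limits, a replicate block, TPM, and leaving out each library. The fit was tested on simulated data. Python 3.11.15 with matplotlib 3.10.9 made the figures. All 10 genes are reported, and from each list the tested genes with the largest rise and fall per comparison among those called qualified to be named, if their higher group reached 100 normalized counts on average. SEMG1, SEMG2, SDC4, PIGT, SYS1, NDRG2, PDGFRB, PMEL, S100A7, S100A12 and CCL20 were named after their values were seen. The genes and lists were chosen with earlier results of these data known.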

Additional observations from a re-analysis of the deposited data

How the results depend on the processing

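Of 721 log2 fold changes of the 7 tested genes under an alternative, 682 kept their direction and their side of the limit, 18 fell short of it, 1 newly passed it and 20 changed sign, none of the last being called. The count of genes called in the HaCaT response was 1, and 0 with upper-quartile factors, without the filter, with filterByExpr and with the replicate block. Leaving out 1 library gave 0 to 1 there, 3 to 4 between the untreated lines, 4 to 6 between the treated lines, and 0 in the TIGK response and in the difference of the responses. Why the WFDC2 call moved was not tested beyond this. Same-numbered libraries did not deviate together (0 of 18 pairs with r above 0.1, range -0.121 to 0.0257), so no pairing by number was seen. Whether they were prepared together cannot be read from these values. With the replicate block the HaCaT response of BPIFC was 0.0032, and no call but that of WFDC2 (edgeR adjusted p = 0.01191) was lost. Signs also changed when 1 library was left out, with log2 fold changes in the TIGK response of -0.331 to 0.0248 for LCN2, -1.09 to 0.0866 for CAMP and -0.198 to 0.02002 for WFDC2. In the HaCaT response they ran from -0.72 to 0.44 for BPIFC and from -0.0272 to 0.19 for SLPI, and in the difference of the responses from -0.58 to 0.59 for BPIFC, from -0.0049 to 0.21 for SLPI and from -0.12 to 0.0685 for PI3. Over all genes the difference of the responses had 881 calls, 1426 with DESeq2, 2019 at a limit of 0.05 and 537 to 575 without HaCaT control replicate 1 or 2 or TIGK H2O2 replicate 2 or 3, and the TIGK response had 3850, and 5998 at a limit of 0.05. In TPM the median gene moved by -0.176 between the untreated lines, and the log2 ratios were -2.36 for LCN2, -1.28 for SLPI, -0.06 for PI3 and -0.04 for RNASE7, so the sign of the last 2, neither of them called, turned. Depth limits DEFB1, LTF and CAMP.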
